A study of Mus musculus with 8 samples.

Results

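Collagen folding and crosslinking enzymes were followed as a set of 10 genes taken by name: Serpinh1, P4ha1, P4ha2, Plod1, Plod2, Pcolce, Lox, Loxl1, Loxl2 and Loxl3. A value was available for 9 of them, out of 19752 genes on the arrays. Loxl2 was not analysed here, because the probe set listed for it also carries the symbol of another gene. Each gene was read from its brightest probe set that names 1 gene, as the log2 of the deposited intensity. All 9 lay above the cut-off for dim genes (log2 intensity 6.65, the lower quartile of gene means), so 9 of the 14814 genes tested were members.

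The tissue was whole tibialis anterior, a hindlimb muscle, from old male C57BL/6 mice (99 weeks in the sample labels, 22 months in the design text). Every muscle had been frozen with a cold metal probe for 8 s and was collected at day 8 of repair. One group of 4 arrays came from mice injected into the peritoneal cavity with 2 µg of recombinant interleukin 33 (rIL-33) on the day before and again on the day after injury. The other 4 arrays carry the treatment label PBS, whose volume and route are not stated. The genetic background is labelled C57BL/6 for replicates 1 and 2 of both groups and WT for replicates 3 and 4, and what sets these labels apart is not explained in the sources used here. All 8 markers of muscle fibres that had been listed were brighter than 99% of genes. Whether every array stands for a mouse of its own is not stated, so the p-values reflect only how far these samples scatter, which may be technical.

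Fibrillar collagen is made in the endoplasmic reticulum, where prolyl 4-hydroxylases stabilise its triple helix, lysyl hydroxylases prepare residues for crosslinks and sugar attachment, and the chaperone HSP47 holds the folded helix. After secretion the propeptides are cut off, and lysyl oxidases oxidise lysines so that fibrils become covalently crosslinked. In injured muscle these steps are carried out mainly by fibro-adipogenic progenitors and fibroblasts, which lay down a temporary matrix around the regenerating fibres. The comparison asks whether rIL-33 given around the injury altered the RNA of this machinery.

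All 9 members had a lower mean with rIL-33 than with PBS, and the median log2 difference was -0.38, against -0.01 over all genes tested. Among all genes tested, 52.0% had a lower mean with rIL-33, and 276 genes (1.86%) differed by as much as the members' median or more in that direction. No member passed the threshold (adjusted p under 0.05 in limma, Benjamini-Hochberg over all genes tested; 1 gene passed, 0.00675%, and it was Retnla). The adjusted p of the members lay between 0.489 and 0.953. The members with an unadjusted limma p under 0.05 numbered 5 and were Pcolce, Serpinh1, Loxl1, Plod1 and Loxl3, all lower with rIL-33, where 5.24% of all genes tested were lower at that level. This count was 2 without PBS replicate 1, where 3.75% of all genes tested were lower at that level. It was 3 without any one of rIL-33 replicate 1, rIL-33 replicate 3 and PBS replicate 4 (2.49%, 2.81% and 2.84% of all genes), and 7 without rIL-33 replicate 2 or without PBS replicate 2 (6.27% and 6.35%). Without rIL-33 replicate 3 the members' median was -0.23. In 1 member, Pcolce, every rIL-33 array lay below every PBS array, as it did in 2.13% of all genes tested. That count was 5 without rIL-33 replicate 2 and 4 without PBS replicate 2, where 4.66% and 5.62% of all genes did so.

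**Figure D1:**
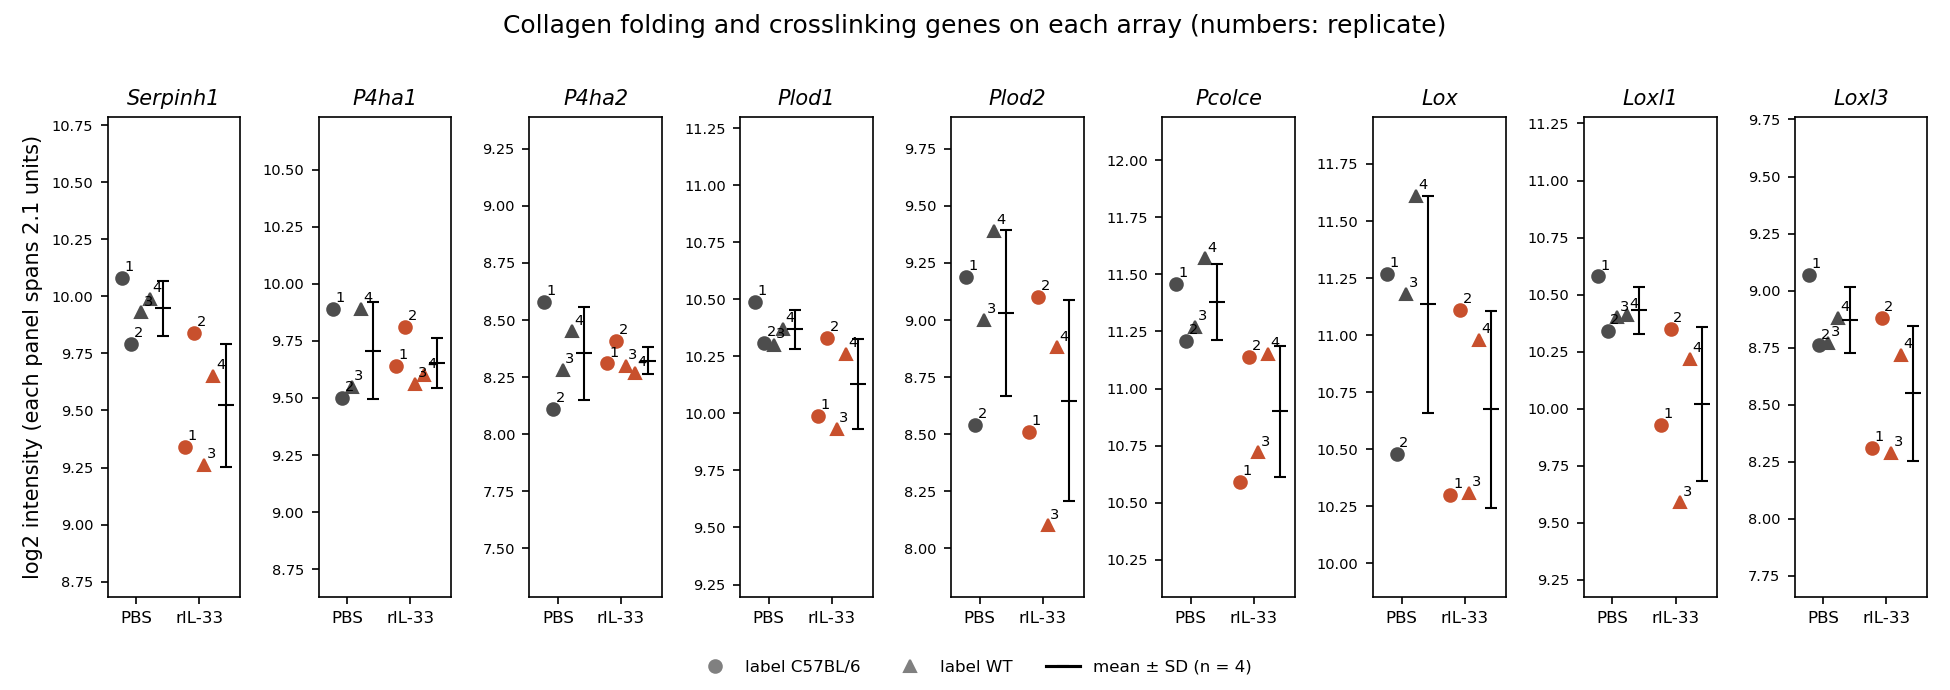
Log2 intensity of the 9 members on each array, PBS in grey and rIL-33 in orange, with circles for the label C57BL/6, triangles for WT and bars for mean ± SD (n = 4 per group). The groups are apart in Pcolce, where PBS lies between 11.21 and 11.57 and rIL-33 between 10.59 and 11.15, and they share one range in P4ha1 and P4ha2.

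Serpinh1 encodes HSP47, the chaperone dedicated to collagen. Its log2 intensity was 10.08, 9.79, 9.93 and 9.99 in PBS replicates 1 to 4 and 9.34, 9.84, 9.26 and 9.65 in rIL-33 replicates 1 to 4. The rIL-33 replicates 1, 3 and 4 lay below all PBS arrays, while replicate 2 lay within the PBS range. The means were 9.95 ± 0.12 with PBS and 9.52 ± 0.27 with rIL-33 (SD, n = 4 each), an intensity lower by 25.6%. The log2 difference was -0.43 (SE 0.13, 95% interval -0.71 to -0.14), with a limma adjusted p of 0.489 and an unadjusted p of 0.00755. The label C57BL/6 alone gave -0.35 and the label WT alone -0.51.

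P4ha1 and P4ha2 encode alternative catalytic subunits of prolyl 4-hydroxylase and had the smallest differences of the members. P4ha1 was at 9.89, 9.50, 9.55 and 9.89 in PBS replicates 1 to 4 and at 9.64, 9.81, 9.56 and 9.60 in rIL-33 replicates 1 to 4. All 4 rIL-33 arrays lay inside the PBS range. The log2 difference of P4ha1 was -0.06 (SE 0.11, 95% interval -0.30 to 0.18; limma adjusted p = 0.910). P4ha2 read 8.58, 8.11, 8.28 and 8.45 with PBS and 8.31, 8.41, 8.30 and 8.27 with rIL-33, again with every rIL-33 array inside the PBS range, and differed by -0.03 (SE 0.10, 95% interval -0.26 to 0.19; limma adjusted p = 0.953). Of all pairs of members these genes had the smallest mean absolute distance, 0.053, between their centred log2 profiles over the 8 arrays. The profiles were not scaled, so members that vary little lie nearer each other. Both genes were lowest of all 8 arrays in PBS replicate 2.

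Lysyl hydroxylases convert lysines of collagen to hydroxylysines. Plod1, whose product acts on the helical part of collagen, was at 10.49, 10.31, 10.30 and 10.37 in PBS replicates 1 to 4 and at 9.99, 10.33, 9.93 and 10.26 in rIL-33 replicates 1 to 4. Only rIL-33 replicate 2 reached the PBS range. Plod1 differed by -0.24 (SE 0.10; limma adjusted p = 0.507, unadjusted p = 0.0381), an intensity lower by 15.3%, and by -0.24 within each label.

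Plod2 hydroxylates the telopeptides, the ends of collagen that take part in the stable crosslinks of scar tissue. It was at 9.19, 8.54, 9.00 and 9.39 with PBS and at 8.51, 9.10, 8.10 and 8.88 with rIL-33. The groups overlapped widely, with PBS replicate 2 near the lower rIL-33 arrays. The log2 difference was -0.38 (SE 0.23, 95% interval -0.88 to 0.12; limma adjusted p = 0.599), and -0.20 without rIL-33 replicate 3. The C57BL/6-labelled arrays alone gave -0.06 and the WT-labelled ones -0.70.

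The 250 bases before the annotated start are shown for P4ha1 and P4ha2, the pair at the smallest distance, and for Serpinh1 and Pcolce, the members with the smallest p. They are the reference sequence of RefSeq (build GRCm38.p6, read 5′ to 3′ along the gene), and capitals mark the core letters of sites bound by the low-oxygen factor HIF, ACGTG or GCGTG on either strand. P4ha1 lies at chr10:59323046-59323295, plus strand, P4ha2 at chr11:54100674-54100923, plus strand, Serpinh1 at chr7:99353240-99353489, minus strand, and Pcolce at chr5:137611405-137611654, minus strand.
P4ha1: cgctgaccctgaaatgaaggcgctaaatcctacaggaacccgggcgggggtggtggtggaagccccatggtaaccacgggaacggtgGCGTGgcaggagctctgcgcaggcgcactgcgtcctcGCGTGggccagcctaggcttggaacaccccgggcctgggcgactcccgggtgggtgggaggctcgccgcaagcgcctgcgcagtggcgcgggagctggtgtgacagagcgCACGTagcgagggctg
P4ha2: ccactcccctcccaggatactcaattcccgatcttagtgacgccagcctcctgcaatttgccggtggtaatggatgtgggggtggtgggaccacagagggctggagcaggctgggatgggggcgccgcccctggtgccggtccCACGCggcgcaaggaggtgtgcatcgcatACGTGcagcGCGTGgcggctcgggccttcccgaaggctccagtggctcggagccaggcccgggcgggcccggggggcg
Serpinh1: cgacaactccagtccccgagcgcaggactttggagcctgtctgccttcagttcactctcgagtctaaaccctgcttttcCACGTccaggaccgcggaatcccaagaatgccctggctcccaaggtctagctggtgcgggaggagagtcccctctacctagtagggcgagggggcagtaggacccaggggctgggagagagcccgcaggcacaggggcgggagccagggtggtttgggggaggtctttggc
Pcolce: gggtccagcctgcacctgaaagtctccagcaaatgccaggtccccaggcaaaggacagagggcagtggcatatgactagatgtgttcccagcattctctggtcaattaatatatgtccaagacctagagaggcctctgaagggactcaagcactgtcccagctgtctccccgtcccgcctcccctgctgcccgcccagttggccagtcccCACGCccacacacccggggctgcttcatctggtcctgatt

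A 300-base window (250 before and 50 after the start) was listed for 5 of the 10 members, and not for Lox, Plod2, Loxl1, Loxl2 or Loxl3. It held 3 matches to the HIF core in P4ha1, 4 in P4ha2, 2 in Plod1 and 1 each in Serpinh1 and Pcolce. Of 32851 windows in the RefSeq table, 43.8% held at least 1 match and 8.93% at least 3. These shares were not matched for the share of G and C letters, although the core itself holds a CG. That share was 70.3% in both P4ha1 and P4ha2, 64.3% in Plod1, 62.3% in Serpinh1 and 59.3% in Pcolce. A CACGTG is counted once on each strand. These letters describe the windows and are not bound sites.

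Pcolce encodes an enhancer of the protease that removes the C-terminal propeptide of procollagen, and it had the largest difference of the members. Its log2 intensity was 11.46, 11.21, 11.27 and 11.57 in PBS replicates 1 to 4. In rIL-33 replicates 1 to 4 it was 10.59, 11.14, 10.72 and 11.15. No rIL-33 array reached the lowest PBS array, although replicates 2 and 4 came close to it. The means were 11.38 ± 0.17 with PBS and 10.90 ± 0.29 with rIL-33 (SD, n = 4 each), a 1.39-fold higher intensity with PBS. The log2 difference was -0.48 (SE 0.14, 95% interval -0.79 to -0.17), with a limma adjusted p of 0.489, an unadjusted p of 0.00657 and rank 187 of the 14814 genes by p. Both labels gave nearly the same value, -0.47 for C57BL/6 and -0.49 for WT.

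Lysyl oxidases start the covalent crosslinking of collagen and elastin outside the cell. Lox, the founding member of the family, was at 11.27, 10.48, 11.18 and 11.61 in PBS replicates 1 to 4 and at 10.30, 11.11, 10.31 and 10.98 in rIL-33 replicates 1 to 4. Each group held both high and low arrays, PBS replicate 2 being low and rIL-33 replicates 2 and 4 being near the other PBS arrays. Its within-group SD of 0.46 was larger than that of 99.3% of genes tested, whose median was 0.14. Lox differed by -0.46 (SE 0.25, 95% interval -1.02 to 0.10; limma adjusted p = 0.570). The difference was -0.30 without PBS replicate 4 and -0.68 without PBS replicate 2. Taken by label, it was -0.17 for C57BL/6 and -0.75 for WT, but the treatment by label interaction was not past the threshold (-0.58, SE 0.48, limma adjusted p = 0.999).

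Loxl1, an oxidase known for its part in elastic fibre renewal, was at 10.58, 10.34, 10.40 and 10.41 with PBS and at 9.93, 10.35, 9.59 and 10.22 with rIL-33. The PBS arrays were close together (SD 0.10) and the rIL-33 arrays spread (SD 0.34), with replicate 2 just above the lowest PBS array. Loxl1 differed by -0.41 (SE 0.15; limma adjusted p = 0.489, unadjusted p = 0.0193), an intensity lower by 24.7%, and by -0.27 without rIL-33 replicate 3. Loxl3, a lysyl oxidase that carries scavenger receptor domains, was at 9.07, 8.76, 8.77 and 8.88 with PBS and at 8.31, 8.88, 8.29 and 8.72 with rIL-33. As in Loxl1, rIL-33 replicate 2 was inside the PBS range. Its log2 difference was -0.32 (SE 0.14; limma adjusted p = 0.514, unadjusted p = 0.0452), and -0.32 within each label.

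**Figure D2:**
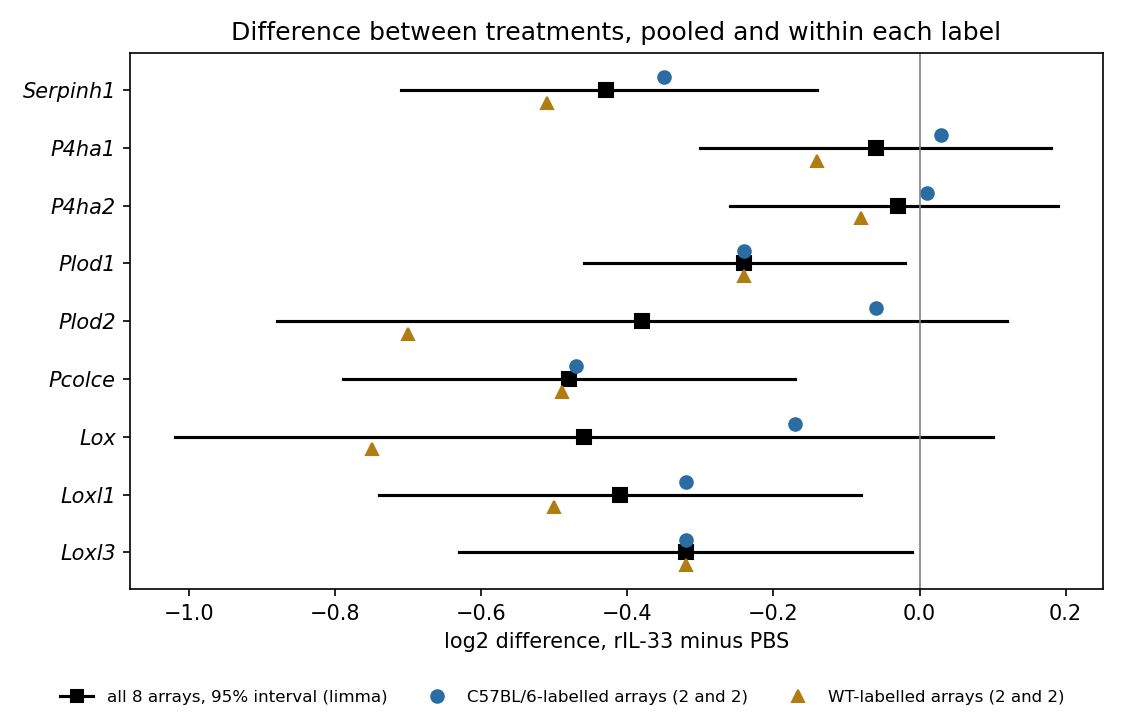
Log2 difference between rIL-33 and PBS for the 9 members, with squares and 95% intervals from limma on all 8 arrays, circles for the C57BL/6-labelled and triangles for the WT-labelled arrays (2 arrays per group in each label). The pooled values run from -0.48 in Pcolce to -0.03 in P4ha2, and the labels are far apart in Lox (-0.17 and -0.75) and Plod2 (-0.06 and -0.70).

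The treatment difference of no member depended on the label past the threshold. The limma adjusted p of the interaction was 0.999 for all 9, and the unadjusted p lay between 0.170 (Plod2) and 0.996 (Loxl3), where 0.00% of all genes tested passed after adjustment and 3.19% were under an unadjusted 0.05. The label itself separated 9.40% of all genes tested with treatment in the fit (limma adjusted p under 0.05). None of the 9 members was among them, which at that share does not set the members apart from other genes. Their limma adjusted p for the label lay between 0.495 and 0.987.

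Some arrays were low or high in most members at once. When each gene was centred on its own mean over the 8 arrays, rIL-33 replicate 3 had the lowest average over the 9 members (-0.42) and rIL-33 replicate 1 the next lowest (-0.32). PBS replicates 1 and 4 were highest (0.31 each). The remaining rIL-33 arrays, replicates 2 and 4, averaged 0.13 and -0.01. In rIL-33 replicate 2, 8 of 9 members were at or above the lowest PBS array, against 4 in replicate 4 and 2 each in replicates 1 and 3. Both of these last arrays exceeded the lowest PBS array only in P4ha1 and P4ha2. PBS replicate 2 was the lowest PBS array in 8 of 9 members. There the members split, with Lox at -0.43 and Plod2, P4ha1 and P4ha2 also below their own means, and the other 5 above theirs.

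**Figure D3:**
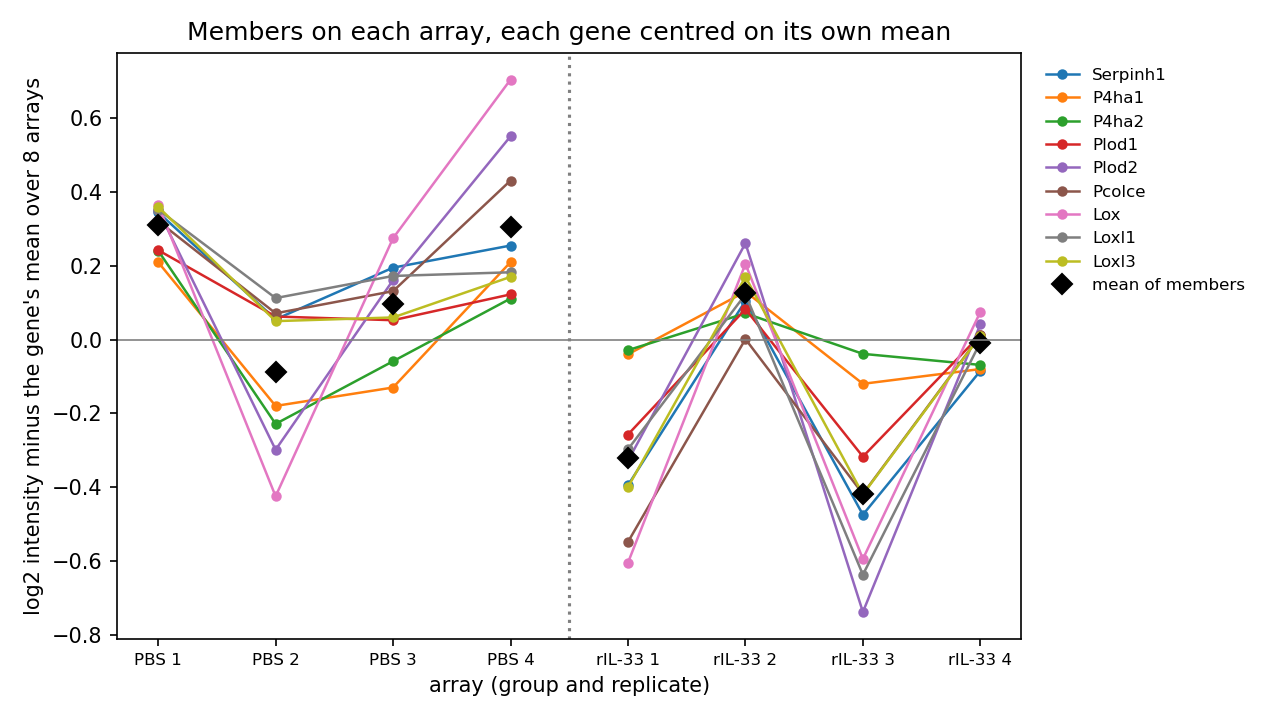
Each member's log2 intensity minus its own mean over the 8 arrays, by array, with lines joining the values of a gene within a group and diamonds for the mean of the 9. The diamonds run from -0.42 (rIL-33 replicate 3) to 0.31 (PBS replicates 1 and 4), and rIL-33 replicate 2 is at 0.13, above PBS replicates 2 and 3.

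Other genes of collagen maturation in the endoplasmic reticulum were mostly lower as well. Of 14 tested, 12 were lower with rIL-33 and 2, P3h2 and Tmem38b, higher, with a median of -0.26. In limma 0 passed the threshold while 5 were at an unadjusted p under 0.05, all lower, where 5.24% of all genes tested were lower at that level. Those 5, named after their values were seen, were Ppib (-0.44, SE 0.13), Crtap (-0.45, SE 0.15), P3h1 (-0.33, SE 0.10), P3h3 (-0.32, SE 0.13) and P3h4 (-0.28, SE 0.10). The products of P3h1, Crtap and Ppib form the complex that adds 3-hydroxyproline to collagen, and P3h3 and P3h4 belong to the same family. P3h1 and P3h4 were lower without overlap between the groups, as were 2.13% of all genes tested. The largest difference was that of P4ha3, another catalytic subunit of prolyl 4-hydroxylase, at -0.57 (SE 0.28; limma adjusted p = 0.536), with -0.21 within the C57BL/6 and -0.93 within the WT label. P4hb, the subunit that P4ha1 and P4ha2 share, differed by -0.24 (SE 0.12), and was named here for that link.

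For export and the later steps the medians were nearer 0, and the genes named here that are not among the largest differences of their list were named after their values were seen. Of 7 export genes tested, 4 were lower and 3 (Klhl12, Mia3 and Sec23a) higher (median -0.06, and -0.11 to -0.02 with 1 array left out), with Sec24d, a COPII coat protein that carries procollagen, at -0.28 (SE 0.13) and Klhl12, an adaptor for large COPII carriers, at 0.23 (SE 0.13; 0.13 without rIL-33 replicate 1). Among 8 other genes of propeptide removal and crosslinking, 5 were lower and 3 (Pcolce2, Tgm2 and, at a difference of 0.00, Tll2) higher (median -0.09, and -0.13 to -0.05 with 1 array left out). Bmp1, the C-propeptide protease that the product of Pcolce enhances, differed by -0.33 (SE 0.16; limma adjusted p = 0.523). Its difference was -0.20 without PBS replicate 4, -0.17 within the C57BL/6 label and -0.49 within the WT label. Adamts14, an N-propeptide protease, differed by -0.26 (SE 0.12). Loxl4 differed by -0.11 (SE 0.08) and the transglutaminase gene Tgm2 by 0.05 (SE 0.11). In these lists the limma unadjusted p was under 0.05 for 1 gene, Adamts3 (-0.26, SE 0.09), where 5.24% of all genes tested were lower at that level.

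The substrates of the enzymes were lower too. All 9 substrate genes tested, fibrillar collagen chains and elastin, were lower with rIL-33, with a median of -0.29. The 5 at an unadjusted limma p under 0.05, some of them named after their values were seen, were Col1a1, Col1a2, Col3a1, Col5a1 and Col5a3, and the smallest adjusted p was 0.489. At that unadjusted level 5.24% of all genes tested were lower. Col1a1 read 12.38, 12.16, 12.43 and 12.55 with PBS and 11.81, 12.18, 11.77 and 12.32 with rIL-33, so that rIL-33 replicates 1 and 3 were again the lowest. Col3a1 differed by -0.38 (SE 0.12) and Col1a1 by -0.36 (SE 0.13), beside -0.48 (SE 0.14) for Pcolce and -0.43 (SE 0.13) for Serpinh1. These differences were not tested against each other.

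Folding helpers that serve all secreted proteins had a median of -0.04 over 14 genes (-0.08 to -0.02 with 1 array left out), 10 of them lower. Pdia4 (-0.27, SE 0.13) and Pdia3 (-0.22, SE 0.14; -0.14 without rIL-33 replicate 3 or PBS replicate 4), disulphide isomerases, had the largest differences. Genes induced by low oxygen, a class to which P4ha1, P4ha2, Plod2 and Lox also belong, had a median of 0.07, with 10 of 14 higher with rIL-33. Ero1a (0.03, SE 0.11), named here for that reason, was counted both in this list and among the folding helpers. Vegfa, the vascular growth factor, and Egln1, an oxygen sensor, were higher by 0.24 (SE 0.10) and 0.34 (SE 0.12) without passing the threshold (limma adjusted p = 0.496 and 0.489), where 4.39% of all genes tested were higher at an unadjusted p under 0.05. Targets of transforming growth factor beta, which drives collagen production in fibroblasts, had a median of -0.31, with 7 of 9 lower. This median was -0.13 without rIL-33 replicate 1 and -0.14 without rIL-33 replicate 3. The other 2 genes, Smad7 (0.16, SE 0.08) and Skil (0.04, SE 0.09), both inside the pathway as a feedback inhibitor and a repressor of Smad signalling, had higher means and were named after their values were seen. Among the lower genes Thbs1 differed by -0.58 (SE 0.24) and Tgfbi by -0.45 (SE 0.16). No gene of these 3 lists passed the threshold in limma, and 5 were at an unadjusted p under 0.05: Vegfa and Egln1 higher, and Thbs1, Tgfbi and Acta2 (named after its value was seen, -0.32, SE 0.14) lower. At that level 5.24% of all genes tested were lower.

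**Figure D4:**
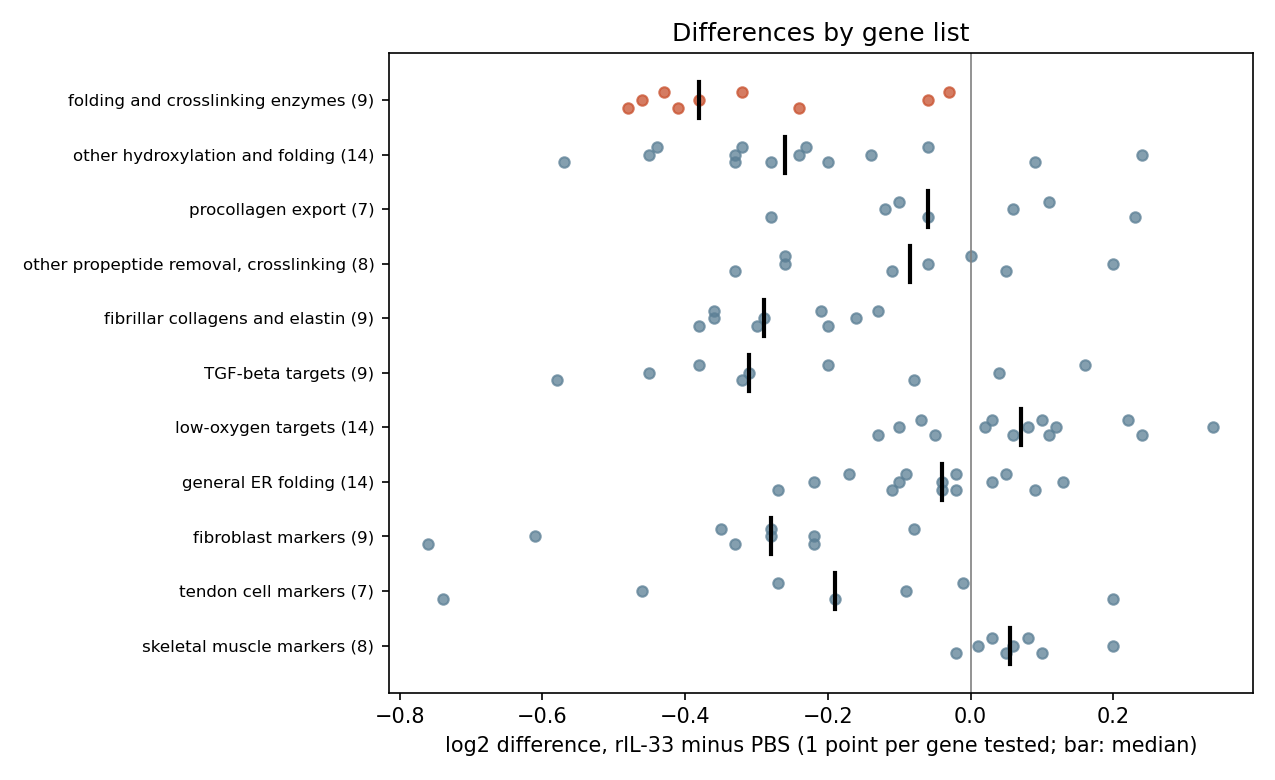
Log2 difference between rIL-33 and PBS for each tested gene of 11 lists, with the number of genes in brackets and a bar at each list's median. The members' median is -0.38, beside -0.29 for fibrillar collagens and elastin, -0.28 for fibroblast markers, -0.04 for general folding helpers and 0.07 for low-oxygen targets.

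Markers of fibroblasts were lower together with the members. All 9 tested of 10 listed were lower with rIL-33, with a median of -0.28. Of these, 6 were at an unadjusted limma p under 0.05, where 5.24% of all genes tested were lower. The groups did not overlap in 4 (Lum, Dpt, Dcn and Cd34, the last pair named after their values were seen), as in 2.13% of all genes tested. Lum (-0.76, SE 0.15) and Dpt (-0.61, SE 0.15) differed most. The summed intensity of the 9 markers was 19430 to 22376 on the PBS arrays and 15453 to 17488 on the rIL-33 arrays. The dimmest of the 9 was brighter than 55.2% of genes. Their part in the members' differences was not tested, and in whole muscle fewer cells of a type and less RNA per cell cannot be told apart.

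Among the other cell types, tendon cell markers had a median of -0.19 (6 of 7 lower), which was -0.08 without rIL-33 replicate 1 and -0.09 without PBS replicate 4. Tnmd (-0.74, SE 0.17) and Kera (-0.46, SE 0.10) differed most, while Fmod (-0.01, SE 0.07) and Mkx (-0.09, SE 0.08) were nearer 0 and Chodl was higher by 0.20 (SE 0.15), the last 3 named after their values were seen. The summed intensity was 6563 to 8351 with PBS and 5885 to 7308 with rIL-33. Of the 7 tendon cell markers, 2 (Tnmd and Kera) were lower at an unadjusted limma p under 0.05, and the same 2 were without overlap. Macrophage markers had a median of -0.22 (-0.11 without PBS replicate 4), with 7 of 8 lower and sums of 6810 to 9059 and 5962 to 7765. Adgre1 differed by -0.44 (SE 0.15) and Cd68 by -0.30 (SE 0.15; -0.18 without rIL-33 replicate 3). Of the 8 macrophage markers, 1 (Adgre1) was lower at an unadjusted limma p under 0.05, and 0 were without overlap. Cd163, a scavenger receptor of resident macrophages named after its value was seen, had a higher mean by 0.27 (SE 0.11; limma unadjusted p = 0.0373). Endothelial markers had a median of -0.11, with 6 of 7 lower (Eng -0.33, SE 0.10, and Emcn -0.32, SE 0.08). Their sums, 8394 to 9200 and 7097 to 8363, did not overlap. Cdh5 (-0.23, SE 0.10), Emcn and Eng were the brightest of the 7 and weigh most in these sums. The others were nearer 0: Pecam1 (-0.11, SE 0.07), Tek (-0.08, SE 0.09), Cldn5 (-0.08, SE 0.07) and Kdr (0.01, SE 0.13). These and Cdh5 were named after their values were seen. Of the 7 endothelial markers, 3 (Cdh5, Emcn and Eng) were lower at an unadjusted limma p under 0.05 and 2 (Eng and Emcn) were without overlap. Of all genes tested, 5.24% were lower at that level and 2.13% were lower without overlap.

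Smooth muscle and pericyte markers had a median of -0.15 (-0.16 to -0.10 with 1 array left out), with 4 of 7 lower. The other 3 had higher means and were named after their values were seen. They were Myh11, a smooth muscle myosin gene (0.14, SE 0.10), Des (0.04, SE 0.06) and Notch3 (0.01, SE 0.08). Cspg4, a pericyte proteoglycan, differed by -0.20 (SE 0.12; -0.10 without rIL-33 replicate 3 and -0.13 without PBS replicate 1) and Kcnj8, a potassium channel, by -0.16 (SE 0.08). Rgs5, a pericyte regulator of G protein signalling, differed by -0.15 (SE 0.07) and was named after its value was seen. It was lower without overlap between the groups, as were 2.13% of all genes tested. The sums over all 7 overlapped (15134 to 15963 with PBS, 15341 to 15908 with rIL-33), but most of each was Des, the desmin gene, which muscle fibres also express and which had means of 13.39 and 13.43. Without Des, a sum added after the data were seen, they were 4828 to 4917 with PBS and 4077 to 4736 with rIL-33 and did not overlap. Rgs5, with means of 11.33 with PBS and 11.18 with rIL-33, was the brightest of these 6 genes. The sum without Des largely follows Rgs5 and does not describe the list as a whole. Muscle fibre markers had a median of 0.05, with 7 of 8 higher (Mylpf 0.20, SE 0.18, and Myh4 0.10, SE 0.08, at 0.07 and 0.06 without PBS replicate 4) and overlapping sums (84958 to 95611 and 89390 to 98134). Adipocyte markers had a median of 0.10 (-0.01 to 0.18 with 1 array left out), with 3 of 4 higher and overlapping sums (869 to 1172 and 981 to 1213). Plin1 differed there by 0.22 (SE 0.10; 0.14 without PBS replicate 1) and Retn by 0.11 (SE 0.15; -0.02 without PBS replicate 1). Of 4 Schwann cell markers, 2 were lower (median 0.00), with Pmp22 at -0.22 (SE 0.10), Mbp at 0.14 (SE 0.07) and sums of 3437 to 3978 and 2934 to 3584. No marker of any list passed the threshold in limma, and the part of these cell types in the members' differences was not tested.

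The genes with the most similar pattern to the members' average over the 8 arrays were Lsp1, Tuba1a, Fads3, Asns and Bub1b. Their centred log2 profiles lay at a mean absolute distance of 0.028 to 0.030 from it, where the median gene lay at 0.231. They differed by -0.34 to -0.29 between the treatments. A difference of about that size follows from their choice by nearness to the members' average. Nearest to Pcolce were Lcp1 (0.039), Aebp1 (0.049) and Anxa5 (0.053), where the median gene lay at 0.267. Among the members themselves, Loxl3 and Serpinh1 lay 0.058 apart and Lox and P4ha2 0.333 apart, the widest of all pairs. These distances were not scaled, and Lox had the largest within-group SD of the members (0.46).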

How the data were processed

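Gene expression was measured on 8 Affymetrix Mouse Gene 1.0 ST arrays, 4 per treatment. Per the submitters' processing notes, the authors made the deposited intensities with RMA (background correction, normalization between arrays, probe summary) and Affymetrix Power Tools, with no version given in the sources used here. RMA normalizes between arrays, yet the deposited intensities still differed in spread. The lower quartile was 88.3 in PBS replicate 1 and 107.3 in PBS replicate 3, and the upper quartile 590.4 and 511.6. Every WT-labelled array had a higher lower quartile and a lower upper quartile than every C57BL/6-labelled array. Background signal makes the folds of dim genes smaller. The deposited intensities are linear, so log2 was taken. Of 24922 probe sets, 21425 named 1 gene, 1399 named several and 2098 none. The last 2 kinds were left out. Per gene the probe set of highest mean was used, and the 4938 genes with means under the 25th percentile were left out as dim. Arrays give no read depth, and their number limits the precision.

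The test was limma 3.58.1 (lmFit, then eBayes) in R 4.3.3, without a block. On simulated data for this comparison (14814 genes) the fit found 54% of 50 genes shifted by a log2 of 0.5 and 90% of 50 shifted by 1. It made 6 false calls. The simulation also held 50 genes shifted by 2 and 50 by 3, and many shifted genes ease the adjusted threshold. In the data 1 gene passed, so these shares do not give the chance of finding a member with a shift of that size. The members and lists were chosen with earlier results of these data known. Genes named are all members, in each list those past the threshold or else the 2 of largest difference, and 5 genes nearest the members' mean profile and 3 nearest that of Pcolce. Any other gene was named after its values were seen. Alternatives were cyclic loess or quantile normalization, a dim filter at the 50th percentile or none, trend and robust eBayes, array weights, blocks by replicate number or label, each label alone, probe set means, each array left out and a threshold of 0.1. Figures were drawn with matplotlib 3.10.9.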

Additional observations from a re-analysis of the deposited data

How the results depend on the processing

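In each of the alternatives run, 0 members passed the adjusted threshold, and the 7 members other than P4ha1 and P4ha2 kept a lower mean with rIL-33. P4ha1 differed by 0.03 in the C57BL/6-labelled arrays alone. P4ha2 differed by 0.01 there and by 0.01 with array weights, and between -0.11 and 0.04 with 1 array left out. Of the other genes named from lists, Pdia3 differed by 0.04 in the C57BL/6-labelled arrays alone and Retn, an adipocyte gene, by -0.02 (without PBS replicate 1) to 0.25 with 1 array left out. The members' median was -0.18 with array weights (which weighted rIL-33 replicates 2 and 4 most, 2.24 and 2.12), -0.24 in the C57BL/6-labelled arrays alone, and -0.52 to -0.23 with 1 array left out. The count of members at an unadjusted p under 0.05 was 2 with array weights, 1 in the C57BL/6-labelled arrays alone, and 2 to 7 with 1 array left out. At that level 3.18%, 3.36% and 2.49% to 6.35% of all genes tested were lower. Members without overlap numbered 7 in the WT-labelled and 1 in the C57BL/6-labelled arrays alone, where 2 against 2 arrays have to be apart and 18.7% and 19.0% of all genes tested were lower in that way, and 1 to 5 with 1 array left out (2.43% to 5.62% of all genes). Over all genes, those past the threshold numbered 0 with the replicate number as a block, 2 in the C57BL/6-labelled and 4 in the WT-labelled arrays alone, and 1 to 2 with 1 array left out. Where no construction is given, the cause was not tested. Same-numbered arrays deviated from their group means with correlations of 0.44, -0.19, 0.43 and 0.54 over genes. They also share the genetic background label, so these correlations cannot decide whether the replicate numbers pair the samples. No pairing is stated, and the main fit used no block. Under the replicate block the members' median was -0.38 and 5 members were at an unadjusted p under 0.05, where 8.23% of all genes tested were lower. With the label as a block 5 members were at that level too, where 7.22% of all genes tested were lower.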
